A study of Mus with 8 samples.

Results

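The circular RNAs described here over all arrays of the series are mmu_circRNA_45921 from Phka2 (probe ASCRP4009404), mmu_circRNA_19469 from Trim21 (ASCRP4007736), mmu_circRNA_28874 from Efcab6 (ASCRP4012529) and mmu_circRNA_007951 from Samd1 (ASCRP4011542). They are 4 of the 14236 circRNA probes on each array. The study listed them among its 10 most upregulated circRNAs, which were chosen by fold change at a P of at most 0.05 on these same arrays. Of those 10, 5 were tested by qRT-PCR in the study and 5 were not. These 4 belong to the untested ones, of which the Pdia5 circRNA is the other. Since the difference between the groups chose them, it is given below as a description, with its standard error from limma and without a test. That standard error takes the variance as equal in both groups and draws it toward the variance of all circRNAs. The files name circRNAs by probe number only, and the names rest on a match of the P given for each listed circRNA to that of exactly 1 probe past 2-fold, computed from the deposited table (largest relative difference 7.3e-07).

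The arrays compared male C57BL/6 mice, aged 15 to 17 weeks at collection. In the HO group (4 arrays), traumatic heterotopic ossification (HO), which is bone that forms in soft tissue after injury, had been induced by cutting the Achilles tendon together with a burn on the back. The control group (4 arrays) had received a skin incision alone, so tenotomy and burn were not separated from each other. In each mouse the Achilles region, between the heel bone and the lower end of the calf muscle, was collected 9 weeks after the operation. All RNA was digested with RNase R, which removes linear RNA, and each sample, labelled with Cy3, was put on an array of its own. The question of the comparison is which circRNAs differ between ectopic bone lesions and normal tissue.

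CircRNAs are closed loops that arise when a downstream splice site is joined back to an upstream one, and their lack of free ends protects them from exonucleases. An exonic circRNA is built from exons of its host gene, a sense overlapping one shares the host's strand without being built from its annotated exons alone, and an antisense one is transcribed from the opposite strand. The amount of a circRNA need not follow that of the host's mRNA. The host genes have unlike roles. Phka2, on chromosome X, encodes a regulatory alpha subunit of phosphorylase kinase, the enzyme that switches on glycogen breakdown. Trim21, on chromosome 7, encodes a ubiquitin ligase that also binds antibodies inside the cell and is a known autoantigen. Efcab6, on chromosome 15, encodes a protein with EF-hand calcium binding motifs. Samd1, on chromosome 8, encodes a SAM domain protein that binds unmethylated CpG-rich DNA. The study gives the Phka2 and Efcab6 circRNAs as exonic, that of Samd1 as sense overlapping and that of Trim21 as antisense to its host.

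Before normalization the control arrays had 12419 to 13839 circRNAs well above background and the HO arrays 9913 to 12109. HO 2 had the fewest circRNAs above background of all arrays and control 3 the most. The HO arrays all lie in slide row 1 and the control arrays in slide row 2, with arrays of the same number in the same slide column, so the effect of the row cannot be told apart from that of the group, and HO 3 was scanned apart from the other arrays. Values below are log2 processed signals, quantile normalized between arrays, unless another scale is named. All 4 circRNAs were well above background on all 8 arrays, with no spot saturated or marked as an outlier, and all 4 passed the filter on dim probes. Each has 1 spot per array, and the scanner software puts the error of a spot's signal at about 10% of it, at most 0.14 on the log2 scale.

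The circRNA from Phka2 was higher on every HO array than on every control array. Its log2 normalized intensity was 12.50, 12.20, 13.76 and 12.98 on HO 1 to HO 4, and 10.53, 10.13, 11.37 and 10.30 on control 1 to control 4. The groups lay 0.83 apart between the lowest HO array (HO 2) and the highest control array (control 3). The means were 12.86 ± 0.68 (SD, n = 4) in HO and 10.58 ± 0.55 (SD, n = 4) in control, a log2 difference of 2.28 (standard error 0.37), or 4.84-fold. In tissue samples such as these, more cells that hold a circRNA and more of it per cell cannot be told apart. On the scanner's linear scale, before any normalization between arrays, the spot gave 8864, 3659, 12667 and 8397 on HO 1 to HO 4 against 1880, 905, 2838 and 944 on control 1 to control 4, where the local background was 27 at most.

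The antisense circRNA at Trim21 showed the same separation. Its log2 normalized intensity was 12.79, 12.28, 13.47 and 13.02 on HO 1 to HO 4, and 10.71, 10.18, 11.53 and 10.57 on control 1 to control 4. HO 2 was again the lowest HO array and control 3 the highest control array, with 0.76 between them. The means were 12.89 ± 0.49 (SD, n = 4) and 10.75 ± 0.57 (SD, n = 4), a log2 difference of 2.14 (standard error 0.33), or 4.42-fold. Its unnormalized signals were 11481, 3840, 10071 and 8482 on the HO arrays and 2163, 936, 3186 and 1138 on the control arrays, in the same array order, so here HO 1 was the brightest before normalization.

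The circRNA from Efcab6 was even among control mice and uneven among HO mice. Its log2 normalized intensity was 7.21, 7.28, 7.48 and 7.04 on control 1 to control 4, a range of 0.44. On HO 1 to HO 4 it was 9.46, 7.88, 10.89 and 10.005, a range of 3.01. HO 2 stood only 0.40 above the highest control array, while the other 3 HO arrays were far above all controls. The means were 9.56 ± 1.26 (SD, n = 4) and 7.25 ± 0.18 (SD, n = 4), a log2 difference of 2.31 (standard error 0.53), or 4.95-fold, and the SD in HO was 6.96 times that in control. This ratio was 3.98 without HO 2, 12.4 on the deposited values and 4.10 with no normalization between arrays, above 1 each time. The standard error takes the variance as equal in both groups, which these SDs depart from. Without HO 2 the log2 difference was 2.87, and without HO 3 it was 1.86. On the unnormalized scale the signals were 1143, 196, 1746 and 1081 on HO 1 to HO 4 and 203, 153, 196 and 123 on control 1 to control 4, so that HO 2 fell within the control range. On control 4 the median of the spot was 8.1 times its local background, and on HO 3 it was 89.5 times.

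The circRNA at Samd1 had the smallest difference of the 4, and its groups overlapped. Its log2 normalized intensity was 12.27, 11.48, 13.17 and 12.58 on HO 1 to HO 4, and 10.62, 10.37, 11.55 and 10.81 on control 1 to control 4. The overlap came from 1 array on each side, HO 2 lying 0.07 below control 3. The means were 12.38 ± 0.70 (SD, n = 4) and 10.84 ± 0.51 (SD, n = 4), a log2 difference of 1.54 (standard error 0.37), or 2.91-fold. Without HO 3 the log2 difference was 1.28 and without HO 2 it was 1.84. Before normalization the signals were 7615, 2299, 8488 and 6160 on HO 1 to HO 4 and 2014, 1048, 3241 and 1304 on control 1 to control 4, with HO 2 below control 3 there too.

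**Figure D1:**
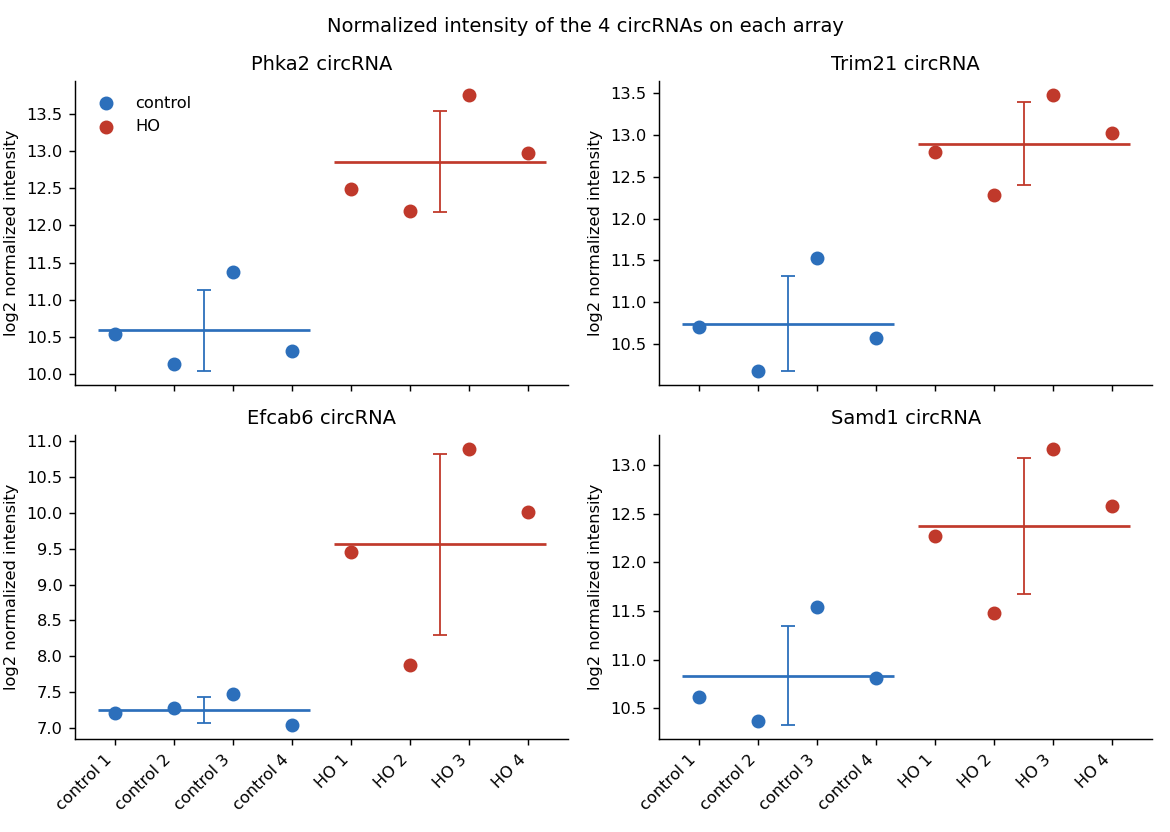
Log2 normalized intensity (vertical axis, its range set for each panel) of the 4 circRNAs on each of the 8 arrays (horizontal axis), with control arrays in blue and HO arrays in red; lines are group means and bars 1 SD (n = 4). In every panel HO 3 is the highest HO array, HO 2 the lowest HO array and control 3 the highest control array, and only for Samd1 does an HO array lie below a control array.

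The place of a spot among all circRNA spots of its own array does not depend on how arrays are scaled to each other. It does depend on how dim the other spots of that array are. The share of circRNA probes dimmer than the Phka2 probe was 96.83% to 98.88% on the control arrays and 99.43% to 99.87% on the HO arrays. For the Trim21 probe it was 96.94% to 99.02% and 99.47% to 99.82%. For the Samd1 probe it was 97.34% to 99.04% and 98.97% to 99.76%, HO 2 lying just below control 3. For the Efcab6 probe it was 74.27% to 79.96% on the control arrays and between 84.28% (HO 2) and 98.3% (HO 3) on the HO arrays. Before normalization the Efcab6 signal was 196 on both HO 2 and control 3, where this share was 84.28% and 79.96%. The distance between these 2 arrays thus came from the other probes. The first 3 probes were near the top of this scale already on the control arrays, so the sizes of these shifts cannot be ranked.

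All 4 circRNAs were more than 2-fold higher in HO on the scanner values, where limma called 5.1% of the 12813 circRNAs tested as higher at 2-fold and an unadjusted p of 0.05. For 3 of the 4 the groups did not overlap, with every HO array higher, as for 16.5% of all circRNAs tested. On the values the authors deposited, the methods' t-test called 0.148% of 12795 circRNAs at 2-fold in that direction, and the groups did not overlap for 14.1%, all 4 members included. Nothing is read from these counts, since the same contrast chose the members. Over all circRNAs tested, the median log2 difference was 0.05, the quartiles were -0.40 and 0.44, and the 99th percentile was 1.53. Those of Efcab6, Phka2 and Trim21 stood at places 10, 11 and 14 and that of Samd1 at place 122 among the 12501 circRNAs that were detected on 1 or more arrays of both groups.

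The order among the 10 listed circRNAs changed with the values used. On the deposited values the Phka2 circRNA had the third log2 difference, at 2.28 (standard error 0.47), followed by Trim21 at 2.15 (0.32), Efcab6 at 1.72 (0.46) and, after the Zfp426 circRNA at 1.65, Samd1 at 1.48 (0.34). On the scanner values Efcab6 came before Phka2, and both were behind the circRNAs of Cdc27 (3.13) and Pdia5 (2.38). On the scanner values Efcab6, Phka2 and Trim21 lay within their standard errors of each other, and on the deposited values Efcab6 came after both, so no order among these 3 is read from them. The list ended at a log2 difference of 1.29 on the deposited values, that of the Srrm1 circRNA, and the next circRNA past both thresholds had 1.24. In the computation used here, over the circRNAs kept by the filter, 19 passed both by the methods' t-test.

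**Figure D2:**
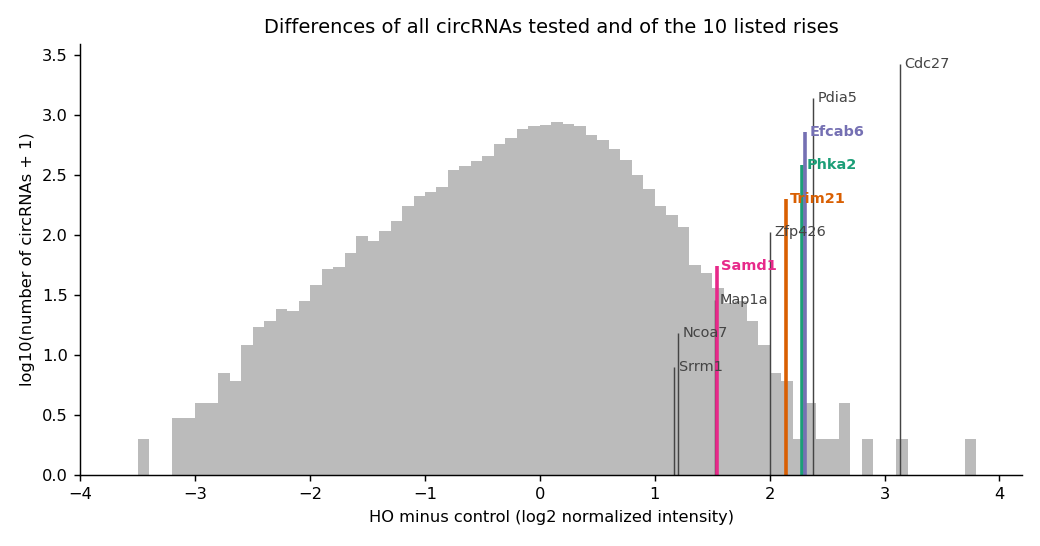
Number of circRNAs (vertical axis, log10 of the number plus 1) by HO minus control difference in log2 normalized intensity (horizontal axis) for the 12813 circRNAs tested, in grey bins. Vertical lines mark the 10 listed circRNAs at heights that only separate their labels, with the 4 described here in colour at 1.54 (Samd1), 2.14 (Trim21), 2.28 (Phka2) and 2.31 (Efcab6) and the other 6 in dark grey.

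The log2 differences of Phka2, Trim21 and Samd1 changed little with the background setting. On the deposited values they were 2.28, 2.15 and 1.48, with the normexp correction and an offset of 50 they were 2.22, 2.12 and 1.48, and without background correction 2.28, 2.17 and 1.53. That of Efcab6 was 1.72 on the deposited values, 1.73 with normexp and the offset and 2.16 without background correction, against 2.31 on the processed signal. It was 3.29-fold on the deposited values in place of 4.95-fold, and the cause was not tested. The deposited values of its control arrays lay between 7.94 and 8.15, and those of HO 1 to HO 4 were 9.71, 8.39, 10.88 and 10.09. Scaling by the 75th percentile or the median of each array gave larger differences for all 4, up to 2.96 for Phka2 with median scaling. Taken relative to the median of all circRNAs, the differences were 2.81 (Phka2), 2.67 (Trim21), 2.71 (Efcab6) and 2.09 (Samd1) under 75th percentile scaling, median scaling and no normalization, which are equal by construction since these shift each array by 1 constant, and 2.23, 2.10, 2.26 and 1.49 after quantile normalization. Whether the Samd1 groups overlapped depended on these steps. HO 2 and control 3 were 0.05 apart without overlap on the deposited values, 0.47 apart without overlap under median scaling, and overlapped by 0.50 with no normalization between arrays.

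**Figure D3:**
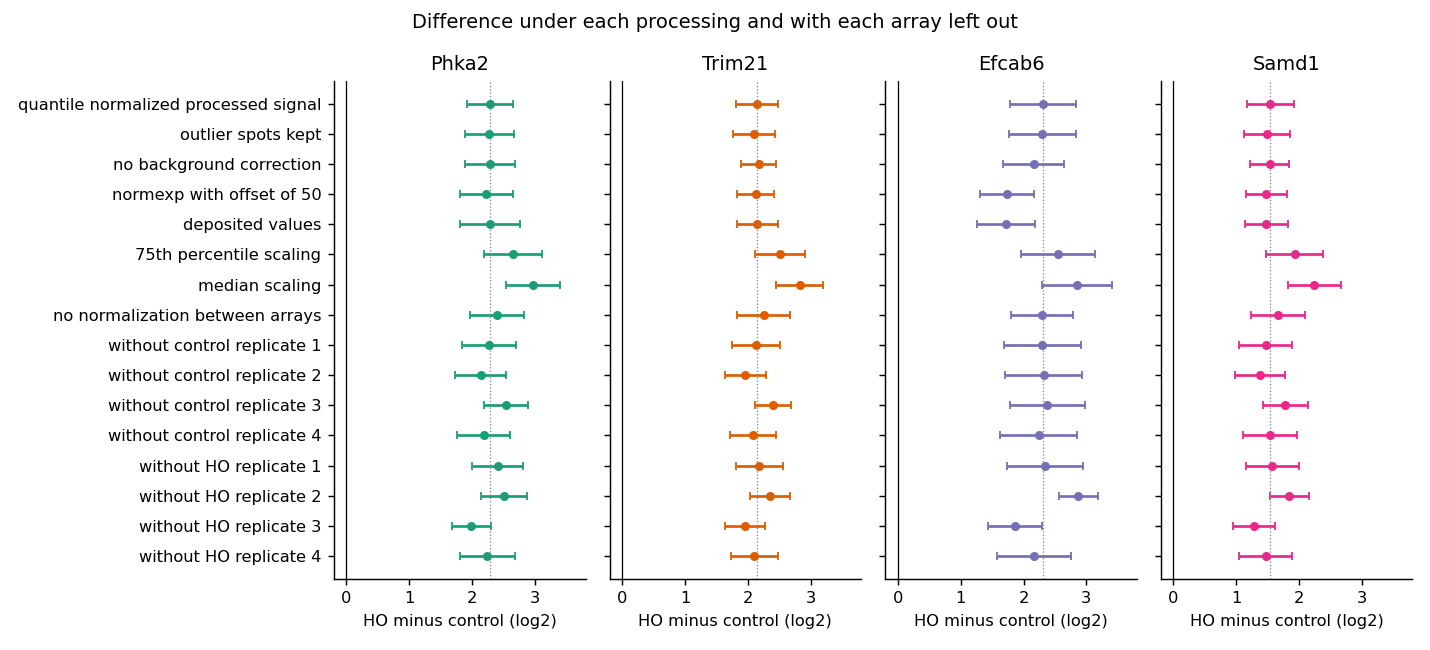
HO minus control difference (log2, horizontal axis) of each circRNA under 8 processings and with each of the 8 arrays left out (vertical axis); bars are 1 standard error from limma and the dotted line is the value on the quantile normalized processed signal. All points lie above 0, the lowest being Samd1 without HO replicate 3 (1.28) and the highest Phka2 with median scaling (2.96).

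The 4 circRNAs had the same order of arrays at the extremes of the HO group, and shared the highest array of the control group. HO 3 was the highest HO array, HO 2 the lowest HO array and control 3 the highest control array for all 4. Deviations from the group mean on control 3 were 0.78 for Phka2, 0.78 for Trim21, 0.71 for Samd1 and 0.23 for Efcab6. On HO 3 they were 0.90, 0.58, 0.79 and 1.33, and on HO 2 they were -0.66, -0.61, -0.89 and -1.68, in the same order of genes. At the low end of the control group Efcab6 parted from the others. Control 2 was the lowest control array for Phka2 (-0.45), Trim21 (-0.56) and Samd1 (-0.47), where Efcab6 was at 0.02, and its own lowest was control 4 (-0.21). HO 3 and control 3 lie in the same slide column, and so do HO 2 and control 2. Each mouse has an array of its own, so effects of slide position and of the mouse on this order cannot be told apart. Over the 8 arrays the correlation of these deviations was 0.96 for Phka2 with Trim21, 0.95 for Phka2 with Samd1 and 0.96 for Trim21 with Samd1. With Efcab6 it was 0.85 for Samd1, 0.78 for Phka2 and 0.72 for Trim21. The arrays are shared by all pairs, 2 degrees of freedom are used by the group means, and the values are descriptions. With no normalization between arrays these correlations lay between 0.75 and 0.97, and on the deposited values between 0.68 and 0.96. These correlations were set beside those in the whole table. Those between the Phka2 circRNA and all other circRNAs had a median of -0.04, with the lower quartile at -0.78, the upper quartile at 0.71 and the 95th percentile at 0.91. The 95th percentile was 0.87 for Trim21, 0.93 for Samd1 and 0.91 for Efcab6. The correlations among Phka2, Trim21 and Samd1 lay above these values, and those of Efcab6 with the other 3 lay above the upper quartiles and below the 95th percentiles. These quartiles and percentiles are those after quantile normalization. With no normalization between arrays the median with all other circRNAs was higher, at 0.35 (Phka2), 0.50 (Trim21), 0.42 (Samd1) and 0.31 (Efcab6).

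**Figure D4:**
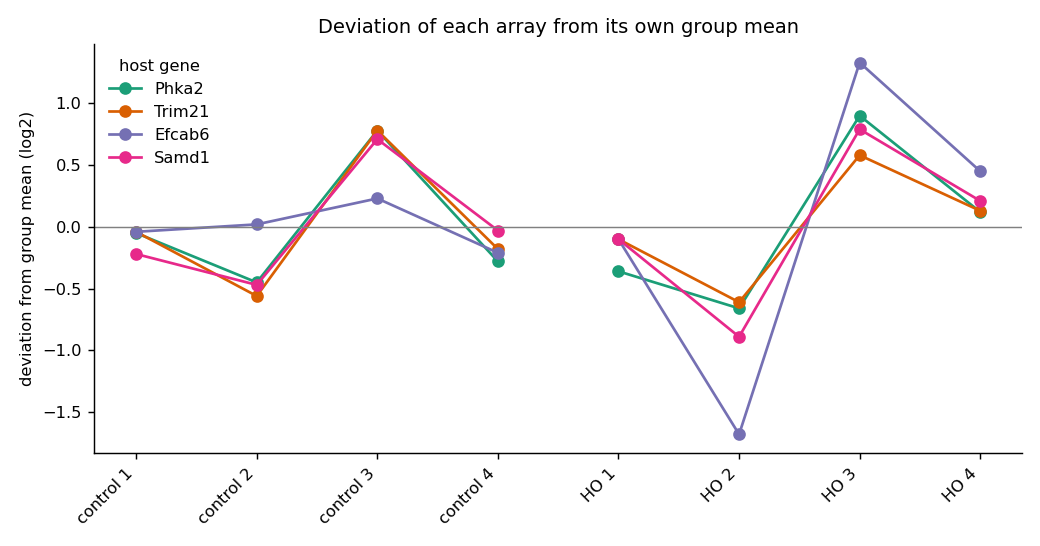
Deviation of each array (horizontal axis) from the mean of its own group in log2 normalized intensity (vertical axis) for the 4 circRNAs; lines join the arrays of a group for reading only, since mice have no order. All 4 are highest on control 3 among control arrays, lowest on HO 2 and highest on HO 3 among HO arrays, and the Efcab6 circRNA is flat among control arrays (0.23 at most) and widest among HO arrays (-1.68 to 1.33).

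This pattern of arrays was compared with that of all other circRNAs, the 4 members left out, a comparison chosen after the members' values had been seen. HO 3 highest, HO 2 lowest and control 3 highest held together for 16.0% of the 12772 other circRNAs with a value on every array. It held for 4.32% of the 648 circRNAs higher in HO at 2-fold and an unadjusted p of 0.05, and for 51.6% of the 1097 lower in HO by the same rule. So within their groups the 4 circRNAs, which are higher in HO, had the array order that was common among circRNAs lower in HO. On the deposited values the shares were 18.8% of 16 and 59.6% of 146, against 14.1% of all others, so there the circRNAs higher in HO were not below the overall share. With 75th percentile scaling they were 10.6% of 368 and 39.6% of 2226, against 18.9%. With no normalization they were 3.76% of 133 and 29.8% of 3283, against 10.7%, and 2 of the 4 members showed the full pattern. The median correlation of deviations with the circRNAs lower in HO was 0.79 for Phka2, 0.73 for Trim21, 0.82 for Efcab6 and 0.84 for Samd1, and across the other 3 scales examined it lay between 0.65 and 0.83. The median with the circRNAs higher in HO was -0.57, -0.50, -0.53 and -0.62, and its sign depended on the scale. With 75th percentile scaling it was also below 0, on the deposited values it lay between -0.38 (Efcab6) and -0.01 (Trim21) over only 16 circRNAs, and with no normalization it was above 0 for all 4 (0.16 to 0.41). The number of circRNAs above background moved partly with this order, being lowest on HO 2 (9913) and highest on control 3 (13839), while HO 4 (12109) exceeded HO 3 (11821). Its part in the members' order was not tested, nor was that of the slide column.

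**Figure D5:**
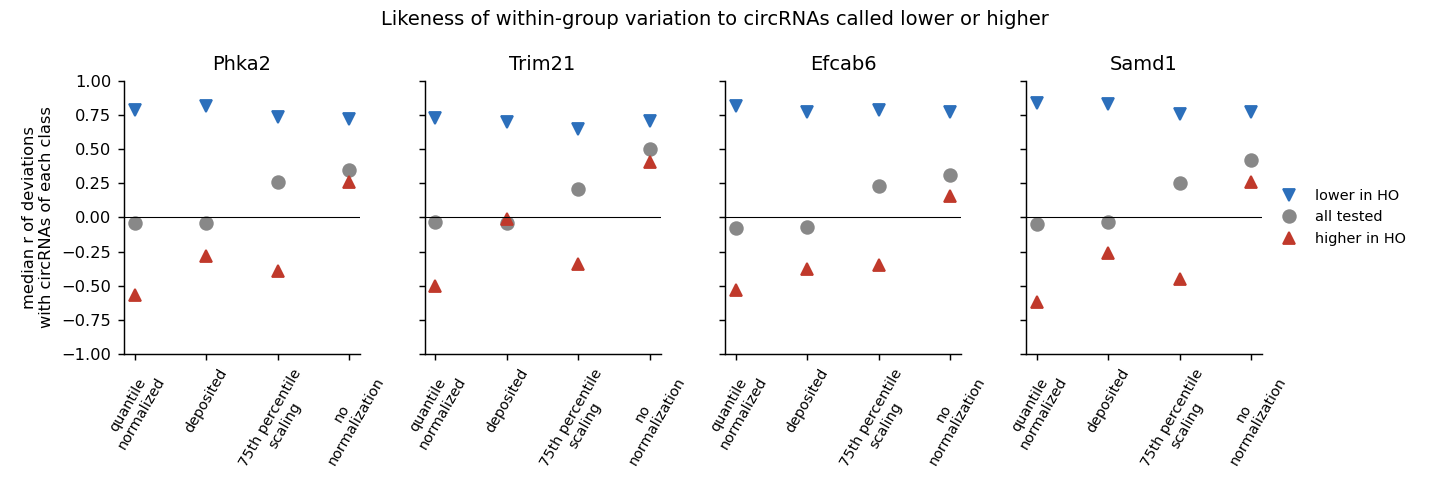
Median correlation (vertical axis) of each circRNA's deviations from its group means, over 8 arrays, with those of circRNAs lower in HO (blue), of all circRNAs tested (grey) and of circRNAs higher in HO (red) at 2-fold and an unadjusted p of 0.05, under 4 scales (horizontal axis), the 4 members being left out of each class. The blue points lie between 0.65 and 0.84 in all panels, while the red points lie below 0 on the first 3 scales (-0.62 to -0.01) and above 0 with no normalization.

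Likeness over the 8 arrays as a whole includes the group difference by which the members were chosen, so high values follow in part from that choice and are given as descriptions only. By this measure the circRNA most like that of Trim21 was that of Phka2 (Pearson's r = 0.993). For Samd1 it was the Zfp426 circRNA (0.992). For Phka2 and Efcab6 it was a probe without a name here, ASCRP4011230 (0.993, log2 difference 0.81) and ASCRP4014109 (0.988, log2 difference 0.74). A correlation of at least 0.9 was reached by 495 circRNAs with Phka2, 476 with Trim21, 365 with Samd1 and 291 with Efcab6, or 2.28% to 3.87% of those compared. Levels of the host mRNAs could not be read from any named probe in these RNase R treated samples. Of the 50 linear transcript probes on the arrays, 44 could be named, and what the others measure is not known here. None of the 44 belongs to a host gene or to the 47 genes listed. That list covers phosphorylase kinase, TRIM21, EF-hand and SAM domain partners, and tendon, muscle, bone, cartilage, macrophages and fat. The tissue could therefore not be checked against markers.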

How the data were processed

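Tissue RNA of 4 HO and 4 control mice was measured on 1-colour Arraystar circRNA arrays. The scans were read by the authors in Agilent Feature Extraction (version 11.0.1.1), and the deposited scanner tables hold, per the file headers, a processed signal, its error and median spot and background signals, all as intensity on a linear scale. They also deposited quantile normalized log2 values. Their background step is not given in the sources used here.

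Here, log2 processed signals of the 14236 circRNA probes were quantile normalized after removal of outlier spots, and circRNAs detected above background by the scanner software on 4 or more of the 8 arrays were fitted with limma 3.58.1 in R 4.3.3 (HO against control, no covariate, Benjamini-Hochberg adjustment, which was used only for counts). The fit was tested on simulated data with noise independent between circRNAs and arrays. On the real arrays many circRNAs deviate together, so the simulation does not give the error rate of these data. An added offset makes log2 differences of dim spots smaller, and quantile normalization forces all arrays to 1 distribution although HO arrays were wider before it. The members and lists were chosen with earlier results of these data known. The 4 members, the 10 listed circRNAs and the probe most correlated with each member were named by rule, with at most 2 unnamed probes. Names were joined within a relative tolerance of 1e-05. RefSeq names came from GRCm38.p6, which gave the same symbol for all 4 host transcripts; probe and splice junction sequences were not used here. Labels do not link same-numbered mice. Alternatives are listed in the closing section. With 4 arrays per group, their number limits precision.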

Additional observations from a re-analysis of the deposited data

Results flagged for a closer look

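Each member's 4 HO arrays and 4 control arrays were searched for a single array far from the rest, on the quantile normalized and on the deposited values. In none of these 16 groups did the gap to the nearest array, as a share of the group's range, reach Dixon's critical value. With 4 arrays that value is most of the range, and both scales use the same arrays. The search therefore cannot show that no array stood apart. On the quantile normalized values, leaving out control 3 lowered the control SD of all 4 members. It fell from 0.55 to 0.2 for Phka2 and from 0.57 to 0.27 for Trim21. For Samd1 it fell from 0.51 to 0.22, and for Efcab6 from 0.18 to 0.12.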

How the results depend on the processing

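The log2 difference of each member kept its direction under all settings run, namely the deposited values, scaling by the 75th percentile or by the median, outlier spots kept, spots without background correction, normexp (offset 50), the replicate block, each array left out and, added after seeing the data, no normalization between arrays. With median scaling it moved by more than the SD between mice pooled over both groups, to 2.96 for Phka2, 2.82 for Trim21 and 2.24 for Samd1. With each array left out it ran from 1.98 (without HO 3) to 2.54 (without control 3) for Phka2, from 1.95 (without HO 3) to 2.40 (without control 3) for Trim21, from 1.86 (without HO 3) to 2.87 (without HO 2) for Efcab6 and from 1.28 (without HO 3) to 1.84 (without HO 2) for Samd1.

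Over all circRNAs, the count of 1756 past 2-fold and an unadjusted p of 0.05 (37.2% higher in HO) was 166 (12.0%) on the deposited values, 479 (22.5%) without background correction, 200 (13.0%) with normexp, 3429 (4.00%) with no normalization between arrays and 993 (50.2%) over the smaller set of circRNAs detected on all 8 arrays. The share higher was 14.3% with 75th percentile scaling. Leaving out 1 array gave counts from 1414 (HO 2) to 2393 (HO 3). At an adjusted p of 0.05, 3569 circRNAs passed in limma. Leaving out 1 array gave 1759 (control 4) to 5185 (HO 3), with 2251 for control 2, 1971 for control 3 and 2221 for HO 1. The methods' t-test gave 1596 at 2-fold and p of 0.05, and 2730 after Benjamini-Hochberg adjustment. The causes were not tested. The share higher in HO among circRNAs past the adjusted p, 50.7%, was 31.5% with 75th percentile scaling and 3.29% with no normalization.

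With the replicate block, 5724 circRNAs passed the adjusted p. Same-numbered arrays share a slide column. The study calls the tissues pairs, and the labels name no shared animal, litter or day. The correlations of their deviations were 0.47, 0.38, 0.73 and 0.09, the last under the 0.1 asked of every pair, and 2 of the 4 control arrays correlated best with the HO array of their own number. The member differences are the same with the block by construction, with standard errors of 0.15 (Phka2), 0.13 (Trim21), 0.44 (Efcab6) and 0.15 (Samd1).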

Other observations

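The other 6 listed circRNAs were set beside the 4 members by the correlation of deviations from the group means over 8 arrays, given as descriptions. The circRNAs of Zfp426, a zinc finger gene, and Map1a, a microtubule binding protein, went with the members on the same arrays. Their correlations were 0.97 and 0.97 for Phka2, 0.93 and 0.93 for Trim21, 0.88 and 0.89 for Efcab6 and 0.98 and 0.96 for Samd1. The circRNA of Cdc27, a subunit of the anaphase promoting complex, also went with the members (0.85, 0.94, 0.72 and 0.90 in the same order of genes). All 3 kept correlations of 0.72 or more on the 5 scales examined. That of Pdia5, a disulfide isomerase, gave 0.45, 0.25, 0.78 and 0.41, and was above 0 on every scale. Its size depended on the scale, with 0.71, 0.76, 0.83 and 0.75 with no normalization between arrays. That of Ncoa7, a nuclear receptor coactivator, is also higher in HO but went the opposite way within the groups, with -0.98 for Phka2, -0.92 for Trim21, -0.77 for Efcab6 and -0.93 for Samd1. With no normalization between arrays its correlations were close to 0, from -0.23 to -0.01. That of Srrm1, a splicing factor, ran from -0.20 to 0.11 and changed sign with the scale, from -0.62 to -0.09 on the deposited values and from 0.43 to 0.72 with no normalization. The causes were not tested.

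On the first principal component of all circRNAs tested, which held 63.2% of the variance, HO 2 lay at 78.7, farthest to the HO side, HO 3 at -8.20, nearest to the control arrays, and control 3 at -61.3, farthest to the control side. The 4 members were lowest among HO arrays on HO 2 and highest on HO 3. These are values after quantile normalization, and HO 3 was scanned apart. Before normalization Trim21 was highest on HO 1 (11481 against 10071 on HO 3).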
